A study of Mus musculus with 45 samples.

Results

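Translation initiation factors, the eIF proteins that bring the ribosome and the initiator tRNA to the start codon of an mRNA, were followed at the transcript level in mouse mammary tumour cell lines. Members were all genes of the count table whose symbol begins with Eif1 to Eif6, without the eIF2 alpha kinases (names beginning with Eif2ak), and with at least 10 counts in at least 3 of the 45 libraries. This rule gave 53 genes of the 28454 in the table. A further 8 genes carried such a name but missed the count minimum and were set aside, with at most 14 counts in any library. They were Eif4e1b, Eif1ad2, Eif1ad4, Eif1ad6, Eif1ad7, Eif1ad8, Eif1ad19 and the pseudogene Eif3s6-ps3.

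Initiation starts when eIF2, loaded with GTP and the initiator methionyl-tRNA, joins the small ribosomal subunit together with eIF1, eIF1A, eIF3 and eIF5. The complex is placed on capped mRNA by eIF4F, made of the cap-binding protein eIF4E, the helicase eIF4A and the scaffold eIF4G, while 4E-BP proteins hold eIF4E away from eIF4G when mTORC1 is inactive. Lack of an amino acid acts on both steps: kinases phosphorylate eIF2 alpha, which blocks its exchange factor eIF2B and lowers general initiation while ATF4 is translated, and Eif4ebp1 is a known ATF4 target.

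Polyadenylated RNA was sequenced from 11 cell lines, with 3 libraries for each of 15 combinations of line and medium. The MYAZ lines (MYAZ16.1e, MYAZ12.3i and MYAZ6.6g) were isolated from mammary gland tumours of female FVB/NJ MMTV-cMYC mice, in which the mammary tumour virus promoter drives the MYC transgene, and MYAZ12.3i-NDI1 is MYAZ12.3i expressing NDI1, an NADH dehydrogenase of yeast. Myc310 is a single line from an MMTV-MYC mouse with several tumours, LM1, LM2 and LM3 were grown from lungs of mice carrying Myc310 in the mammary fat pad, and LM1-LM, LM2-LM and LM3-LM were grown from lungs after fat pad injection of LM1. Control medium contained cysteine and cystine in all 11 lines, and 4 of them (LM1, LM1-LM, Myc310 and MYAZ16.1e) were also kept for 6 h in medium lacking both (deprived). All lines therefore carry the MYC transgene, the 7 lines of the Myc310 lineage share a single origin, and deprivation was measured in 1 line of each kind. The series text calls the 3 libraries of a line technical replicates, so p-values measure only the spread between these samples, which may be technical.

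Library totals ran from 19517859 to 29019988 counts with a median of 22899900, and the 53 members took 1.76 to 1.89% of them. Among mammary epithelial markers, Krt8 (217 to 1730 CPM, counts relative to the TMM-scaled library size) and Krt18 (94 to 550 CPM) were present in all libraries, whereas Epcam, Cdh1 and Krt5 stayed at or below 0.802, 0.284 and 0.252 CPM and Krt14 at or below 1.13 CPM. The summed epithelial list of 8 genes ran from 339 to 2460 CPM. It was higher after deprivation in each of the 4 lines (1100 to 1130 against 1380 to 1420 CPM in LM1). The fibroblast list of 6 genes ran from 1.7 to 217 CPM. In control medium it summed to 1.7 to 2.11 CPM in Myc310 and 216 to 217 CPM in LM3-LM. Within it Pdgfra was present in all libraries (1.03 to 58.3 CPM), Col3a1 reached 199 CPM and Pdgfrb 38.5 CPM, whereas Thy1 was at most 0.124 CPM. After deprivation the fibroblast sum went from 57.6 to 63.5 CPM down to 26.9 to 29.2 CPM in LM1-LM and from 15.1 to 17.5 CPM down to at most 11.4 CPM in LM1, and it was higher in Myc310 (1.7 to 2.11 against 2.68 to 2.81 CPM) and MYAZ16.1e (7.46 to 10.1 against 10.7 to 11.9 CPM). Of 5 leukocyte markers, Cd68 was at 2.7 to 18.7 CPM in all libraries while Ptprc stayed at or below 0.233 CPM. The list summed to 4.12 to 6.26 CPM in the MYAZ lines and 9.34 to 19.6 CPM in the lineage of Myc310 in control medium. Of 4 endothelial markers Kdr reached 6.36 and Pecam1 0.246 CPM, and the list summed to 3.52 to 6.56 CPM in the MYAZ lines and at most 0.911 CPM in the lineage. Of 3 alveolar markers Ager reached 1.97 CPM and Sftpc 0.0758 CPM. The part of these markers in the results was not tested.

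Across the initiation factors, fewer transcripts were higher than lower in the deprived cells of each line, and the higher ones included Eif4ebp1, Eif1, Eif3c, Eif1ad and Eif2s2. In MYAZ16.1e, 10 of the 50 members that passed the filter on low counts (Eif1ad3, Eif4a3l1 and Eif4a3l2 did not) were higher and 25 lower after deprivation (edgeR quasi-likelihood test, Benjamini-Hochberg adjusted p under 0.05 over all 13400 genes tested), where 26.6% of all genes were higher and 27.1% lower. In Myc310, 17 were higher and 25 lower, beside 32.8% and 33.9% of all genes. In LM1, 17 were higher and 24 lower (35.8% and 35.3% of all genes), and in LM1-LM 19 were higher and 23 lower (36.5% and 35.9%). The lower share of the members thus stood at 46 to 50%, above that of all genes in each line, while the higher share stood between 20 and 38%. Median log2 fold changes of the 50 members were -0.0876 (MYAZ16.1e), -0.0943 (Myc310), -0.0603 (LM1) and -0.0649 (LM1-LM), beside 0, -0.0128, -0.00461 and 0 for all genes.

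Direction was compared across the 4 lines, each set against its own controls. Higher in all 4 lines were 9 members and lower in all 4 were 18, where 19.3% and 19% of all genes were. A further 3 members passed the test in none of the lines, and 4 passed it in opposite directions in different lines. For these counts the share of all genes was not computed. The median absolute log2 change of the members was 0.179 in MYAZ16.1e, 0.233 in Myc310, 0.222 for LM1 and 0.284 for LM1-LM, below the 0.228, 0.368, 0.454 and 0.479 of all genes.

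**Figure D1:**
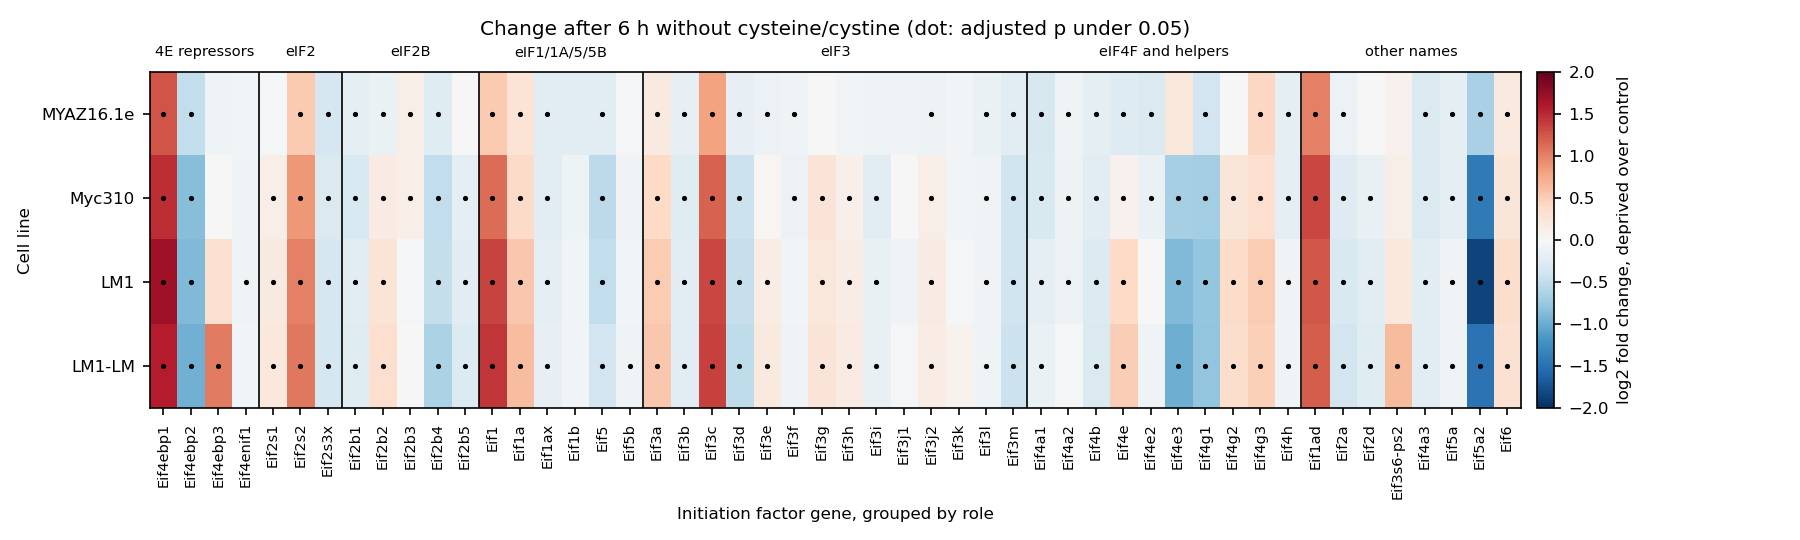
Heat map of the log2 fold change after 6 h of cysteine/cystine deprivation for the 50 members tested (columns, grouped by role) in 4 cell lines (rows), with dots where the edgeR adjusted p was under 0.05. Eif4ebp1, Eif1, Eif2s2, Eif3c and Eif1ad stand out as higher in every line, and Eif4ebp2, Eif4g1 and Eif5a2 as lower in every line.

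Promoter windows are shown for 8 members. These tumours are driven by MYC, which binds with MAX to the E-box CACGTG, and amino acid lack acts through ATF4 and C/EBP elements of the form TGATGNNA. Windows come from RefSeq (GRCm38.p6), 250 bases before to 50 bases after each start site, and 39 of the 53 members had one. The sequences read 5′ to 3′ on the strand of the gene, in lower case, with every CACGTG in capitals. The first 5 hold an E-box, and the last 3 belong to genes that rose strongly under deprivation and hold neither motif. The choice favours E-box holders, which were 10 of the 39 members with a window. Windows of Eif2b1, Eif2d and Eif4g3, not shown, hold neither motif. Eif4e has another window (chr3:138525941-138526240), not shown, without an E-box.
Eif4g1 (chr16:20672477-20672776, plus strand): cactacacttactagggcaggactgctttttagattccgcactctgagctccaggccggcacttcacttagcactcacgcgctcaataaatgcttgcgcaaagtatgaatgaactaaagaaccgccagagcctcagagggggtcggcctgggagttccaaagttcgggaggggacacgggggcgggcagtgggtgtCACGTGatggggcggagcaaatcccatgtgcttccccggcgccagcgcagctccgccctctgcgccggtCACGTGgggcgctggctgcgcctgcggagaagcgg
Eif4e (chr3:138527018-138527317, plus strand): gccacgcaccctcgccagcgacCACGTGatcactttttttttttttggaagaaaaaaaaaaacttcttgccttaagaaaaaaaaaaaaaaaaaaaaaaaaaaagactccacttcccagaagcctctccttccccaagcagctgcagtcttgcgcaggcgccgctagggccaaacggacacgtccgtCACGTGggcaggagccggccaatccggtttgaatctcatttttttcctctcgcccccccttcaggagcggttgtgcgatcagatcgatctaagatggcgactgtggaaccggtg
Eif4a1 (chr11:69672374-69672673, minus strand): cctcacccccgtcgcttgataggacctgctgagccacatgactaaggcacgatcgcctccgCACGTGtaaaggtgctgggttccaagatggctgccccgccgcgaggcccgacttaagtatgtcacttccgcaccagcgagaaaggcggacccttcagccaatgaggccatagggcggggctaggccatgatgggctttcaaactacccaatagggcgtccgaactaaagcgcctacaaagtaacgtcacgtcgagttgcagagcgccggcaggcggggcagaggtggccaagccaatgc
Eif3a (chr19:60790644-60790943, minus strand): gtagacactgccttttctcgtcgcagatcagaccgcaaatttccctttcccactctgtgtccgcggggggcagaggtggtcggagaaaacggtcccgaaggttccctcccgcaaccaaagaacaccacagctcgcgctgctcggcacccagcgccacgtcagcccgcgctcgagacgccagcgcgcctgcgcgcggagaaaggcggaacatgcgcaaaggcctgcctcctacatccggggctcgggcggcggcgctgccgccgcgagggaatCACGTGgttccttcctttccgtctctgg
Eif5a2 (chr3:28781027-28781326, plus strand): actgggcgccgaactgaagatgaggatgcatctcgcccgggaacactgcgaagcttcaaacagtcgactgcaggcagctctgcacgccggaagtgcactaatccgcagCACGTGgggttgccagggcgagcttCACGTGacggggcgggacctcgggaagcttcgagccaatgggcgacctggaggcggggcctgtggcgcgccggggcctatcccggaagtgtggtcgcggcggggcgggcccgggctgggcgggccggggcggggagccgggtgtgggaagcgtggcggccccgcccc
Eif1 (chr11:100319699-100319998, plus strand): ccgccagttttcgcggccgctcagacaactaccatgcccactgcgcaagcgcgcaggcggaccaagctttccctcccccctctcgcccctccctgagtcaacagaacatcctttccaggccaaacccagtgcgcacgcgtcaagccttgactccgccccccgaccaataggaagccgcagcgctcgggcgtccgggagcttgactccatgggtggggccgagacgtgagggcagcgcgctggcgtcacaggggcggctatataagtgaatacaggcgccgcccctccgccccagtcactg
Eif2s2 (chr2:154892857-154893156, minus strand): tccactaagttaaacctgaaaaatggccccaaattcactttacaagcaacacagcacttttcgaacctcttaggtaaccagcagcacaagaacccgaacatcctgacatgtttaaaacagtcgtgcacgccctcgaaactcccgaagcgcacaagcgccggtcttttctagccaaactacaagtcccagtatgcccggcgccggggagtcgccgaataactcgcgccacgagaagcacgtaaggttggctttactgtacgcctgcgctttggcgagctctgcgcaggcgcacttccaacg
Eif3c (chr7:126566317-126566616, minus strand): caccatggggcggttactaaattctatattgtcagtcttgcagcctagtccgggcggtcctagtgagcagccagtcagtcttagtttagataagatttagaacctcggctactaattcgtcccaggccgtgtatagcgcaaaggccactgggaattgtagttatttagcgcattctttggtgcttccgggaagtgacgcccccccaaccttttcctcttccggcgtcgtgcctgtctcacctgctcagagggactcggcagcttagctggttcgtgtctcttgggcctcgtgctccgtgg

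An E-box was found for 10 of the 39 members (25.6%) and for 2187 of 27025 genes with a window (8.09%), counting a gene once if any of its windows held it. Counted by window, 12 of 51 member windows (23.5%) and 2349 of 32851 windows (7.15%) held one. The motif is its own reverse complement, so both strands are read at once. Eif4g1 had E-boxes starting 54 bases before and 16 after its start site, Eif4e 228 and 64 bases before, and Eif5a2 142 and 117 bases before. Eif4a1 had one 189 bases before its start and Eif3a one at base 23 after it. The other holders were Eif1b, Eif3f, Eif3k, Eif4h and Eif5a. Under deprivation the holders did not share a direction: Eif3a rose in all 4 lines, Eif4a1, Eif4g1, Eif4h, Eif5a and Eif5a2 fell in all 4, and Eif4e fell in MYAZ16.1e and was higher in the other 3 lines. Eif3f fell in MYAZ16.1e and Myc310 only, and Eif1b and Eif3k passed in no line.

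The ATF4 and C/EBP form TGATGNNA, searched on both strands, was found for 1 of the 39 members (2.56%), Eif2s3x, and for 16.4% of all genes. The stricter forms TGATGNAA and TGATGCAA, which it contains, were found for 1 and 0 members and for 4.51% and 1.03% of all genes. These counts describe the letters within 300 bases and say nothing of elements elsewhere. Windows were missing for 14 members, among them Eif4ebp1, Eif4ebp3, Eif4e3, Eif6 and Eif4g2.

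The eIF4E repressors moved in opposite directions. Eif4ebp1 (chr8:27260329-27276674), which encodes 4E-BP1, had the largest rise of all members tested in each line. Coordinates of genes are GRCm38. MYAZ16.1e had 128, 128 and 130.3 CPM in control medium and 303, 312 and 314 CPM after deprivation. Myc310 had 125, 121 and 126 CPM in control medium and 354, 349 and 338 CPM after deprivation. In LM1 the libraries held 124, 122 and 122 CPM in control medium and 379, 387 and 397 CPM after deprivation, and in LM1-LM 153, 138 and 142 CPM in control medium and 424, 420.2 and 407 CPM after deprivation. Deprived and control libraries did not overlap in any line. Lack of overlap was part of the rule that chose members given by library, so here and below it describes them and adds no support. Members not so chosen, among them Eif3b and Eif3d, also lacked overlap in all 4 lines, and the share of all genes was not computed. The rise was 2.39-fold in MYAZ16.1e (log2 fold change 1.26 ± 0.031, SE, adjusted p = 1.10e-24), 2.77-fold in Myc310, and 3.24-fold and 2.96-fold in LM1 and LM1-LM. Relative to MYAZ16.1e, the log2 change was larger by 0.21 ± 0.043 (Myc310), 0.43 ± 0.043 (LM1) and 0.31 ± 0.043 (LM1-LM) (adjusted p of the interaction at most 1.92e-04).

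Eif4ebp2 (chr10:61428491-61452661), for the related repressor 4E-BP2, fell. The gene Gm48086 overlaps it on the same strand. MYAZ16.1e libraries held 214, 220.3 and 213 CPM in control medium and 157, 149 and 155 CPM after deprivation. Myc310 libraries held 345, 342 and 334 CPM in control medium and 189, 193 and 191 CPM after deprivation. LM1 went from 348, 354 and 353 to 189.5, 187 and 180 CPM, and LM1-LM from 364, 350.4 and 352 to 185, 171 and 177 CPM. The groups did not overlap in any line, and the level left was 0.71 of control in MYAZ16.1e (log2 fold change -0.49 ± 0.029, adjusted p = 3.66e-15) and 0.514 of control in LM1-LM (-0.96 ± 0.028, adjusted p = 2.17e-23). Control levels differed too, with MYAZ16.1e lowest, and after deprivation the 4 lines lay between 149 and 193 CPM.

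Because both counts come from the same library, their ratio does not depend on scaling. The Eif4ebp1 to Eif4ebp2 count ratio, chosen after the values were seen, went from 0.596 ± 0.0161 to 2.02 ± 0.0819 in MYAZ16.1e (SD, n = 3), and Myc310 started at 0.365 ± 0.0127 and reached 1.81 ± 0.0518. LM1 started at 0.349 ± 0.00579 and reached 2.09 ± 0.104, and for LM1-LM the ratios were 0.406 ± 0.0141 and 2.35 ± 0.0978. It is a ratio of counts of genes of different length and not of molecules. Eif4ebp3 was close to the limit of the data, at 15 to 73 counts a library, and passed the test in LM1-LM alone (log2 fold change 1.03 ± 0.30, adjusted p = 0.00251). Eif4enif1, which encodes the eIF4E shuttling protein 4E-T, changed by at most -0.082 (LM1, adjusted p = 0.0472) and did not pass in the other lines.

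**Figure D2:**
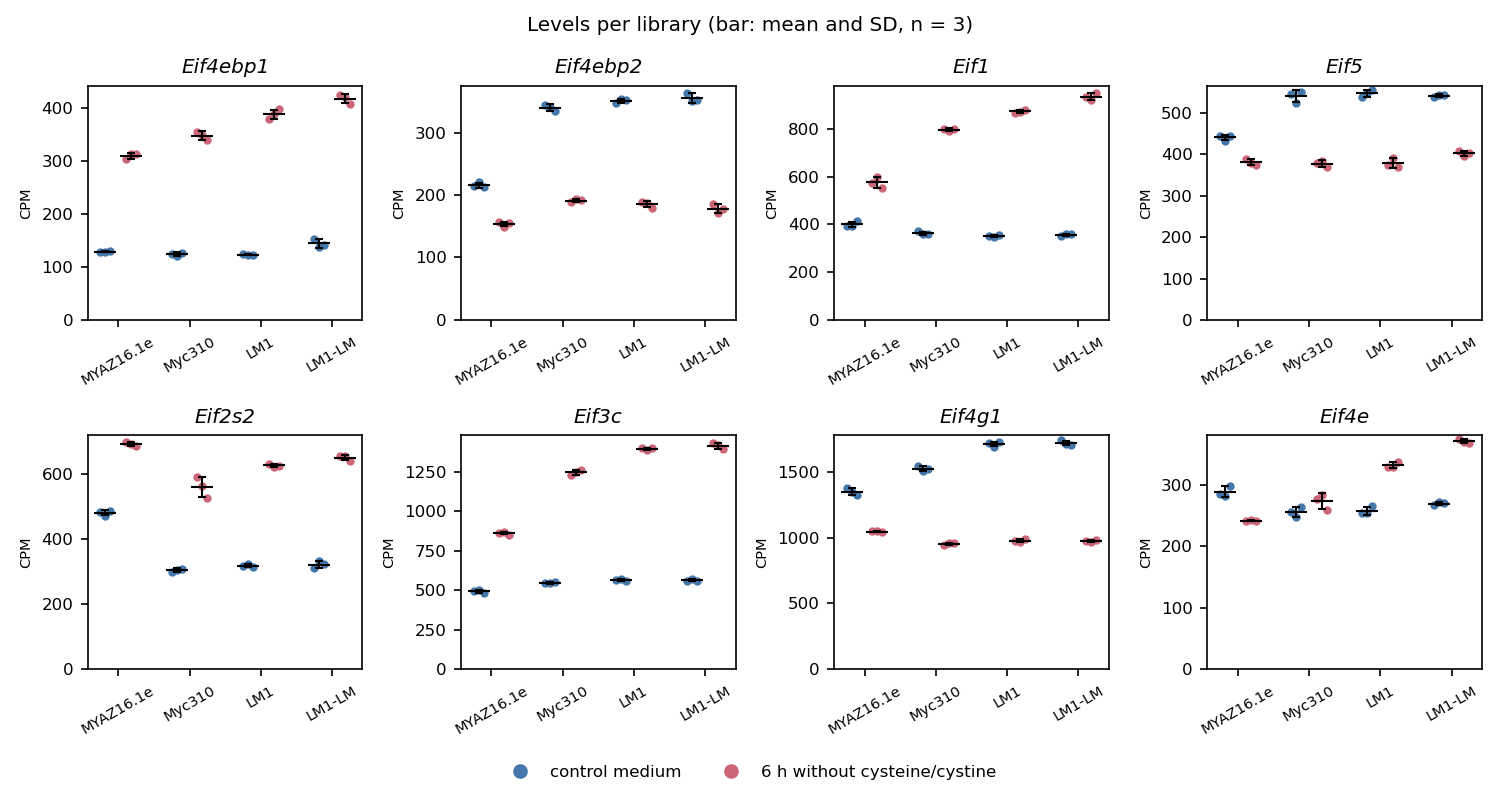
CPM of 8 members in each library of 4 lines in control medium (blue) and after 6 h of deprivation (red), with mean and SD as black bars (n = 3). Eif4ebp1, Eif1, Eif2s2 and Eif3c rose in every line without overlap, Eif4ebp2, Eif5 and Eif4g1 fell, and Eif4e fell in MYAZ16.1e but rose in LM1 and LM1-LM.

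Genes of the eIF2 complex diverged, although their products act as one trimer. Eif2s2, which encodes the beta subunit (chr2:154871410-154892935), rose most. It stood at 481, 471 and 486 CPM in control medium and 698, 691 and 685 CPM after deprivation in MYAZ16.1e. In Myc310 it stood at 296, 303 and 308 CPM in control medium and 589, 562 and 525.6 CPM after deprivation. In LM1 it went from 318, 321 and 313 to 630.2, 621 and 623 CPM and in LM1-LM from 310.3, 330.2 and 321 to 655, 652 and 639 CPM. All deprived libraries were above all controls of their line, by 1.44-fold in MYAZ16.1e (log2 fold change 0.52 ± 0.028, adjusted p = 7.10e-16) up to 2.08-fold in LM1-LM (1.05 ± 0.029, adjusted p = 4.77e-24). MYAZ16.1e had the highest control level, and its deprived libraries were also the highest of the 4 lines. Eif2s2 overlaps the gene a on the other strand, and whether strand was used in counting is not given in the sources used here.

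Eif2s1, the alpha subunit on which the stress kinases act (chr12:78861819-78887010), moved little. MYAZ16.1e held 249.7, 236 and 247 CPM in control medium and 239, 233 and 243 CPM after deprivation (log2 fold change -0.04 ± 0.033, adjusted p = 0.33). Myc310 held 276, 276 and 287 CPM in control medium and 319, 312 and 288 CPM after deprivation (0.12 ± 0.032, adjusted p = 0.00166). LM1 held 297, 288 and 300 CPM in control medium and 321, 329 and 325 CPM after deprivation (0.18 ± 0.032, adjusted p = 1.69e-05). LM1-LM went from 297, 304 and 318 to 354, 346 and 337 CPM (0.21 ± 0.032, adjusted p = 7.14e-07). The groups overlapped in MYAZ16.1e only, and the Myc310 call was lost when replicate 1 was left out (adjusted p = 0.078) or replicate 2 (0.0602). Eif2s3x, the gamma subunit, fell by a similar amount in each line, with log2 fold changes of -0.33, -0.30, -0.34 and -0.34. Within libraries the Eif2s2 to Eif2s3x count ratio went from 1.31 ± 0.0328 to 2.38 ± 0.0365 in MYAZ16.1e and from 0.647 ± 0.00735 to 1.71 ± 0.0315 in LM1-LM.

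For eIF2B, the guanine nucleotide exchange factor of eIF2, 5 subunit genes were tested and none changed by 2-fold. Eif2b1 (alpha, chr5:124570213-124579131) and Eif2b4 (delta) fell in all 4 lines. For Eif2b1, MYAZ16.1e held 56.9, 56.5 and 60.5 CPM in control medium and 51.2, 51.9 and 49.7 CPM after deprivation. Myc310 held 85, 79.3 and 81.4 CPM in control medium and 64.7, 66.9 and 68.9 CPM after deprivation, LM1 82.2, 79.3 and 81.4 CPM in control medium and 65.2, 67.1 and 70.8 CPM after deprivation, and LM1-LM 85.5, 84.8 and 83.9 CPM in control medium and 68, 70.2 and 70.4 CPM after deprivation. The log2 fold change lay between -0.31 in Myc310 and -0.20 in MYAZ16.1e, with adjusted p of at most 1.10e-04 and no difference in response past the threshold, except with upper-quartile scaling for Myc310 and LM1-LM (adjusted p = 0.031 and 0.0301). Eif2b4 fell most in LM1-LM (-0.64 ± 0.053, adjusted p = 4.03e-12) and least in MYAZ16.1e (-0.25 ± 0.047). Eif2b2 (beta) fell in MYAZ16.1e (-0.13, adjusted p = 0.0359) and rose in Myc310, LM1 and LM1-LM (0.16, 0.28 and 0.33). Eif2b3 (gamma) rose in MYAZ16.1e and Myc310 (0.12 and 0.13, adjusted p = 0.0147 and 0.00873) and did not pass in LM1 or LM1-LM. Eif2b5 (epsilon, the catalytic subunit) did not pass in MYAZ16.1e and fell by 0.18 to 0.28 on the log2 scale in the other 3 lines.

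Among the factors that find the start codon, Eif1 rose and Eif5 fell. eIF1 rejects poor start sites, whereas eIF5 is the GTPase-activating protein that commits the complex to a start. Eif1 (chr11:100319885-100322096) stood at 395, 392 and 413 CPM in control medium and 576, 599 and 553 CPM after deprivation in MYAZ16.1e. Myc310 held 371, 361 and 358 CPM in control medium and 799, 789.6 and 800.3 CPM after deprivation. LM1 went from 351, 346 and 355 to 869, 872 and 879.6 CPM, and LM1-LM from 351, 358 and 361 to 934, 920.3 and 950 CPM. No groups overlapped, and the rise was 1.43-fold in MYAZ16.1e (log2 fold change 0.52 ± 0.025, adjusted p = 3.99e-17), 2.17-fold in Myc310, and 2.55-fold and 2.69-fold in LM1 and LM1-LM. The excess over MYAZ16.1e was the largest positive one among the named members, at 0.60 ± 0.035, 0.83 ± 0.035 and 0.91 ± 0.035 on the log2 scale (adjusted p = 3.82e-14, 4.39e-18 and 3.50e-19).

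Eif5 (chr12:111538016-111546752) had 446, 434 and 444 CPM in control medium and 389, 378 and 376 CPM after deprivation in MYAZ16.1e. Myc310 had 546, 524 and 552 CPM in control medium and 381, 384 and 369 CPM after deprivation. LM1 went from 539, 548 and 556 to 374, 392 and 369 CPM, and LM1-LM from 539, 545 and 543 to 409, 397 and 404 CPM. Deprived libraries were below controls in every line, with log2 fold changes of -0.22 ± 0.025, -0.53 ± 0.025, -0.50 ± 0.025 and -0.39 ± 0.025 (adjusted p at most 1.33e-08). The Eif1 to Eif5 count ratio in a library went from 0.907 ± 0.0221 to 1.51 ± 0.0619 in MYAZ16.1e. Myc310 started at 0.672 ± 0.0206 and reached 2.11 ± 0.0564, LM1 started at 0.64 ± 0.00945 and reached 2.31 ± 0.08, and for LM1-LM the ratios were 0.658 ± 0.00624 and 2.32 ± 0.0333. These pairs, too, were chosen after the values were seen.

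The eIF1A genes also split. Eif1a, at chr18:46597701-46616456, held 228, 229.8 and 231 CPM in control medium and 282, 274 and 277 CPM after deprivation in MYAZ16.1e. Myc310 held 234, 236 and 243 CPM in control medium and 324, 312 and 305 CPM after deprivation. LM1 went from 233, 216 and 230.5 to 324, 324 and 318 CPM, and LM1-LM from 223, 228 and 226 to 343, 345 and 326 CPM. The rise was without overlap in each line (log2 fold change 0.27 ± 0.027, 0.39 ± 0.027, 0.54 ± 0.027 and 0.62 ± 0.027). Its X-linked relative Eif1ax fell, by 0.16 on the log2 scale in LM1-LM to 0.23 in Myc310. The encoded proteins are close in sequence, and how the quantification divided reads between the genes was not tested. Eif5b, for the GTPase of subunit joining, passed in LM1-LM only (-0.084), and Eif1b in no line.

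**Figure D3:**
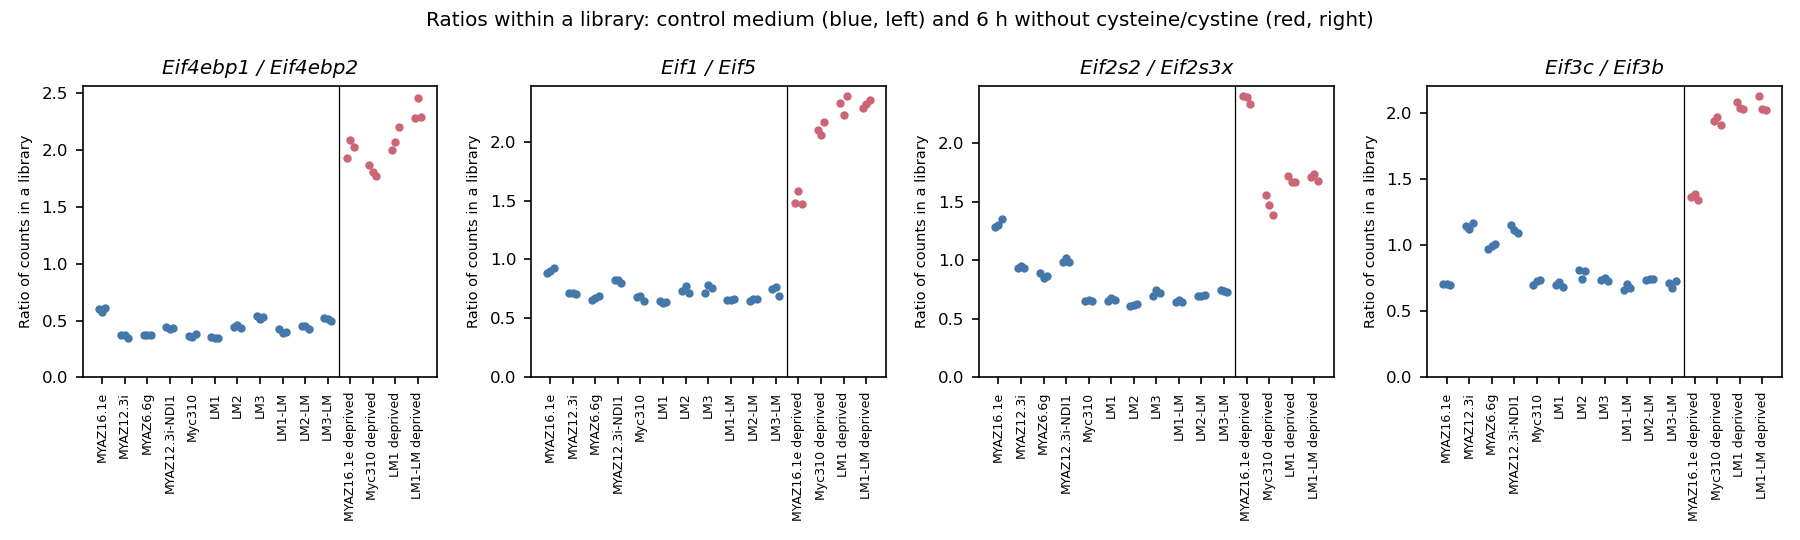
Ratios of counts of member pairs within each library, with the 11 lines in control medium in blue and the 4 deprived groups in red. Every deprived library lies above the controls of its own line for Eif4ebp1 over Eif4ebp2, Eif1 over Eif5, Eif2s2 over Eif2s3x and Eif3c over Eif3b.

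Of the 14 genes of eIF3, the scaffold that holds the other factors on the small subunit, Eif3c and Eif3a rose most. Eif3c (chr7:126546455-126566411) had 498, 500.4 and 479 CPM in control medium and 865, 867 and 853 CPM after deprivation in MYAZ16.1e. Myc310 had 545, 543 and 551 CPM in control medium and 1232, 1252 and 1263 CPM after deprivation. LM1 went from 565, 567.8 and 560.1 to 1401, 1387 and 1399 CPM, and LM1-LM from 558, 569.7 and 558 to 1431, 1424 and 1395 CPM. The rise was 1.74-fold in MYAZ16.1e (log2 fold change 0.80 ± 0.02, adjusted p = 3.20e-24), 2.27-fold in Myc310, and 2.54-fold and 2.59-fold in LM1 and LM1-LM. No deprived library overlapped a control of its line, and the interactions with MYAZ16.1e were 0.38 ± 0.029, 0.54 ± 0.029 and 0.57 ± 0.029 (adjusted p at most 8.78e-12).

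Eif3a (chr19:60761117-60790658), the largest subunit, had 742, 748 and 702 CPM in control medium and 846, 811 and 828 CPM after deprivation in MYAZ16.1e. Myc310 held 841, 807 and 830 CPM in control medium and 1100, 1136 and 1068 CPM after deprivation. LM1 went from 948, 936 and 939.6 to 1290, 1310 and 1304 CPM, and LM1-LM from 942, 919.6 and 962 to 1342, 1351 and 1317 CPM. The groups did not overlap, with log2 fold changes of 0.18 ± 0.025, 0.40 ± 0.025, 0.50 ± 0.025 and 0.54 ± 0.025. The other core subunit gene Eif3b fell in every line, by 0.16 to 0.25 on the log2 scale, and Eif3d and Eif3m fell in every line by 0.17 to 0.51 and 0.22 to 0.44. Eif3l fell by 0.06 to 0.13. In all, 2 eIF3 genes were higher and 7 lower in MYAZ16.1e, 5 and 6 in Myc310, and 6 and 5 in each of LM1 and LM1-LM, beside 26.6% and 27.1%, 32.8% and 33.9%, 35.8% and 35.3%, and 36.5% and 35.9% of all genes. Eif3e and Eif3j2 were lower in MYAZ16.1e (-0.11 and -0.11) and higher in LM1-LM (0.20 and 0.14). Eif3j2 is a close copy of Eif3j1, and Eif3s6-ps2 of Eif3e, so the counts of these pairs are uncertain.

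The cap-binding genes differed between lines. Eif4e (chr3:138526179-138559696), the target of the 4E-BPs, had 286, 282 and 299 CPM in control medium and 241, 243 and 241 CPM after deprivation in MYAZ16.1e, where the groups did not overlap and the level fell (log2 fold change -0.26 ± 0.029, adjusted p = 5.15e-09). Myc310 held 256, 247 and 264 CPM in control medium and 277, 283 and 259 CPM after deprivation, and these overlapped (0.081 ± 0.029, adjusted p = 0.0145). The Myc310 call did not pass with upper-quartile scaling (adjusted p = 0.129) or without replicate 1 (0.139) or replicate 2 (0.486). LM1 went from 254, 254 and 265 to 329, 329.7 and 338 CPM (0.40 ± 0.029, adjusted p = 1.32e-13), and LM1-LM from 266, 271 and 271 to 374, 370.5 and 368 CPM (0.50 ± 0.029, adjusted p = 5.10e-16), both without overlap. The response differed from that of MYAZ16.1e by 0.34 ± 0.041 (Myc310), 0.67 ± 0.041 (LM1) and 0.76 ± 0.041 (LM1-LM) (adjusted p = 5.56e-08, 2.03e-14 and 5.96e-16).

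Eif4e3 (chr6:99625135-99666771), a weakly expressed eIF4E relative, had 4.41, 3.57 and 4.25 CPM in control medium and 5.35, 4.73 and 4.29 CPM after deprivation in MYAZ16.1e, which overlapped (log2 fold change 0.22 ± 0.13, adjusted p = 0.147). Myc310 held 4.69, 6.55 and 5.89 CPM in control medium and 3.62, 3.73 and 3.52 CPM after deprivation (-0.66 ± 0.13, adjusted p = 2.76e-05). LM1 went from 28.4, 28.8 and 25.2 to 15.5, 14 and 14.2 CPM, and LM1-LM from 28.3, 28 and 28 to 13.3, 15.4 and 13 CPM, to 0.544 and 0.507 of control (-0.88 ± 0.085 and -0.98 ± 0.085). The annotated genes Gm20696 and Gm44104 overlap it on the same strand. Eif4e2, which encodes the cap-binding protein 4EHP, fell in MYAZ16.1e and Myc310 (-0.29 and -0.13) and did not pass in LM1 or LM1-LM.

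Of the eIF4G scaffold genes, Eif4g1 fell and Eif4g3 rose. Eif4g1 (chr16:20668313-20692884) held 1382, 1349 and 1325 CPM in control medium and 1049, 1050 and 1040 CPM after deprivation in MYAZ16.1e. Myc310 held 1548, 1510 and 1524 CPM in control medium and 947, 957 and 962 CPM after deprivation. LM1 went from 1718, 1694 and 1728 to 977, 969 and 989 CPM, and LM1-LM from 1742, 1716 and 1710 to 974, 971 and 981 CPM. No groups overlapped, and 0.771 of the control level was left in MYAZ16.1e (log2 fold change -0.38 ± 0.019, adjusted p = 1.38e-16) against 0.581 in LM1-LM (-0.78 ± 0.019, adjusted p = 2.52e-25). Control levels were lowest in MYAZ16.1e, and deprived levels lay between 947 and 1050 CPM in the 4 lines. The response differed from that of MYAZ16.1e by -0.31 ± 0.027, -0.40 ± 0.027 and -0.41 ± 0.027 in Myc310, LM1 and LM1-LM (log2, negative for a larger fall).

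Eif4g3 (chr4:137993022-138208508) had 116, 117 and 111 CPM in control medium and 153, 153 and 151 CPM after deprivation in MYAZ16.1e. Myc310 held 234, 237 and 242 CPM in control medium and 294, 308 and 304 CPM after deprivation. LM1 went from 256, 250.2 and 252 to 347, 347 and 352 CPM, and LM1-LM from 248, 253 and 254 to 341, 345 and 338 CPM. 1700095J12Rik overlaps it on the other strand. All deprived libraries were above the controls of their line (log2 fold change 0.41 ± 0.026, 0.33 ± 0.024, 0.50 ± 0.024 and 0.48 ± 0.024). Eif4g2, for DAP5, a relative of eIF4G that lacks the eIF4E site, did not pass in MYAZ16.1e and rose in Myc310, LM1 and LM1-LM (0.24, 0.37 and 0.36).

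The helicase genes and their cofactors fell by small amounts. Eif4a1 (chr11:69666936-69672423) had 1877, 1860 and 1834 CPM in control medium and 1488, 1523 and 1460 CPM after deprivation in MYAZ16.1e. Myc310 held 1693, 1671 and 1663 CPM in control medium and 1371, 1343 and 1392 CPM after deprivation. LM1 went from 1742, 1729 and 1759 to 1476, 1495 and 1546 CPM, and LM1-LM from 1770, 1759 and 1779 to 1601, 1540 and 1570 CPM. The fall was without overlap, at -0.32 ± 0.021, -0.31 ± 0.021, -0.18 ± 0.021 and -0.13 ± 0.021 on the log2 scale, and was smaller in LM1 and LM1-LM than in MYAZ16.1e (adjusted p = 1.21e-04 and 3.16e-06), with the LM1 call lost under upper-quartile scaling (0.0654).

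Eif4a2 (chr16:23107444-23114136), for the second eIF4A helicase, held 223, 225 and 224 CPM in control medium and 209, 216 and 208 CPM after deprivation in MYAZ16.1e. Myc310 held 265, 266 and 263 CPM in control medium and 255, 251 and 237 CPM after deprivation. LM1 went from 301, 310 and 303 to 284, 270.1 and 268 CPM, and LM1-LM from 265, 284 and 288 to 269, 267 and 259 CPM. The log2 fold changes of -0.09 ± 0.03, -0.11 ± 0.029 and -0.12 ± 0.029 passed the test (adjusted p = 0.0118, 0.00175 and 5.83e-04), whereas that of LM1-LM, where the groups overlapped, was -0.037 ± 0.029 (adjusted p = 0.254). Eif4b and Eif4h, which stimulate the helicase, fell in every line, by 0.17 to 0.29 and by 0.07 to 0.19 on the log2 scale. Several small RNA genes lie within Eif4a1 and Eif4a2 on the same strand, and Rfc4 overlaps Eif4a2 on the other.

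Members outside the role groups above included large changes. Eif1ad (chr19:5366741-5371526), for an eIF1A domain protein, had 64.9, 64.6 and 63.6 CPM in control medium and 129, 134 and 127 CPM after deprivation in MYAZ16.1e. Myc310 held 64.3, 67.3 and 60.9 CPM in control medium and 161, 167 and 163 CPM after deprivation. LM1 went from 73.8, 71.6 and 77.8 to 174, 166 and 174 CPM, and LM1-LM from 71.2, 76.4 and 78.8 to 172, 168 and 168 CPM. It rose 2.01-fold in MYAZ16.1e and 2.53-fold in Myc310, with the values of LM1 (2.37-fold) and LM1-LM (2.3-fold) between them and no overlap. Banf1 overlaps it on the other strand, and reads of the 2 genes cannot be told apart if strand was not used.

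Eif5a2 (chr3:28781276-28798846), the scarce relative of the elongation and termination factor gene Eif5a, had 5.86, 5.96 and 6.56 CPM in control medium and 3.91, 3.59 and 4.33 CPM after deprivation in MYAZ16.1e. Myc310 held 4.42, 4.14 and 4.91 CPM in control medium and 1.18, 1.59 and 2.29 CPM after deprivation. LM1 went from 2.84, 3.52 and 2.49 to 0.929, 0.685 and 0.782 CPM, and LM1-LM from 2.11, 2.45 and 2.29 to 1.03, 0.605 and 0.705 CPM. Groups did not overlap in any line, and 0.641, 0.374, 0.278 and 0.36 of control was left (log2 fold change -0.64 ± 0.17, -1.42 ± 0.20, -1.84 ± 0.23 and -1.47 ± 0.24). Its lowest library held 12 counts, and its standard errors were the widest among the named members. Eif5a itself fell by 0.08 to 0.19 on the log2 scale.

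Eif6 (chr2:155819832-155826925), which keeps the large ribosomal subunit from joining and overlaps Gm16098 on the other strand, held 366, 349.8 and 358 CPM in control medium and 406, 422 and 405 CPM after deprivation in MYAZ16.1e. Myc310 held 199, 204 and 192 CPM in control medium and 230, 235 and 244 CPM after deprivation. LM1 went from 185, 182 and 192 to 229, 228 and 241 CPM, and LM1-LM from 197, 199 and 206 to 242, 240.4 and 239 CPM. It rose in every line without overlap (log2 fold change 0.19 ± 0.028, 0.24 ± 0.029, 0.36 ± 0.03 and 0.30 ± 0.029).

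Eif2d (chr1:131153181-131187658), a factor that can deliver the initiator tRNA without GTP and whose gene overlaps Rassf5 on the other strand, had 37.7, 36.2 and 36.4 CPM in control medium and 36.6, 38.9 and 35.5 CPM after deprivation in MYAZ16.1e, which overlapped. Myc310 held 52.1, 56.6 and 56.4 CPM in control medium and 50, 49 and 51.6 CPM after deprivation. LM1 went from 61.5, 61.4 and 62.3 to 51.2, 53.3 and 52.1 CPM, and LM1-LM from 63.8, 59.4 and 61.3 to 50.6, 50.9 and 51.2 CPM. Log2 fold changes were 0.0018 ± 0.044 (adjusted p = 0.985), -0.14 ± 0.041 (0.00281), -0.21 ± 0.041 (4.85e-05) and -0.23 ± 0.041 (6.49e-06). The Myc310 call was lost without replicate 2 (adjusted p = 0.0882). Eif2a and Eif4a3 fell in all 4 lines, by 0.12 to 0.37 and by 0.21 to 0.30 on the log2 scale.

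The size of the response was compared between lines by interaction contrasts against MYAZ16.1e, which all 3 contrasts share. For Myc310, 16 members responded more positively and 12 more negatively (19.8% and 20.4% of all genes). For LM1 the counts were 21 and 13 (26.9% and 25.3%), and for LM1-LM 22 and 12 (28.4% and 26.4%). The balance of directions over all genes depended on the scaling, while the members' median lay above that of all genes with both. With TMM the median difference of the members was 0.0103, 0.0729 and 0.0726 for Myc310, LM1 and LM1-LM, beside -0.018, 0.0077 and 0.00138 for all genes, and with upper-quartile scaling it was -0.024, -0.00756 and -0.0128, beside -0.0521, -0.0722 and -0.0825. Of all genes called for LM1, 51.5% were positive with TMM and 41% with upper-quartile scaling, and for LM1-LM 51.7% and 41.6%. MYAZ16.1e was the only line outside the Myc310 lineage that was deprived, so lineage and individual line cannot be told apart.

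**Figure D4:**
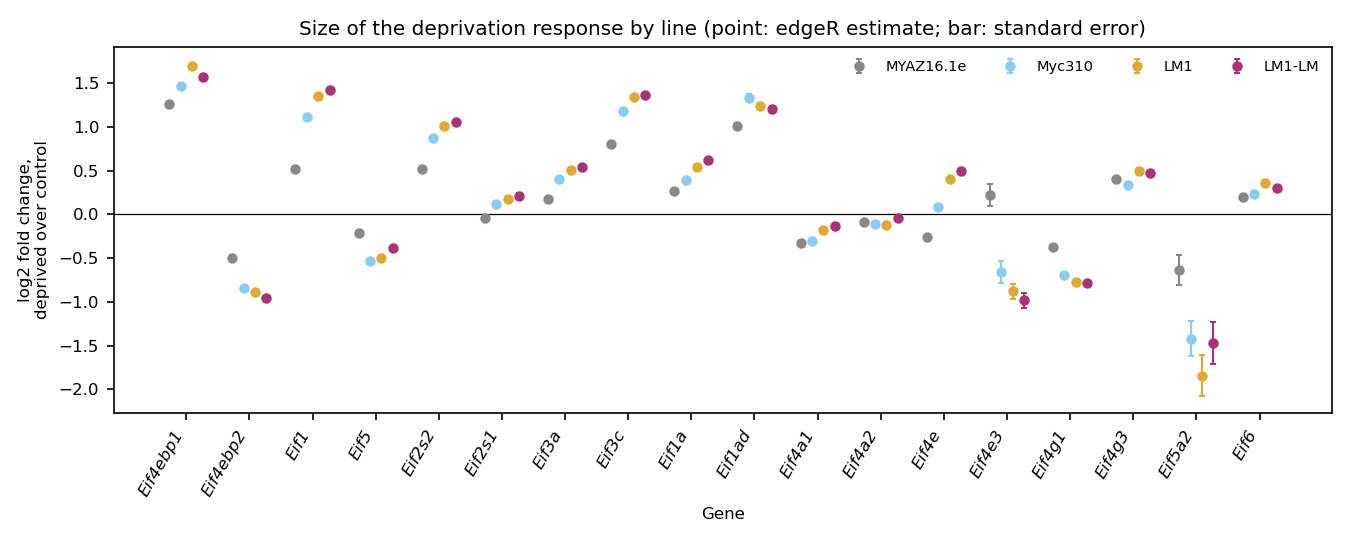
Log2 fold change after deprivation for 18 named members in 4 lines, as edgeR estimate (point) and standard error (bar, smaller than the point for most genes). MYAZ16.1e lies nearest to 0 for Eif1, Eif2s2, Eif3c and Eif4g1, and on the other side of 0 from LM1 and LM1-LM for Eif4e.

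Other genes of the translation pathway were read from lists chosen with earlier results known, and their counts stand beside 26.6 to 36.5% of all genes higher and 27.1 to 35.9% lower in the 4 lines. Of 6 eIF2 alpha kinase and phosphatase genes, 2 were higher and 3 lower in MYAZ16.1e and in Myc310, and 3 higher and 3 lower in LM1 and in LM1-LM. Ppp1r15a, which encodes the inducible phosphatase subunit GADD34, rose by 2.31 in MYAZ16.1e and 3.95, 4.21 and 4.35 in Myc310, LM1 and LM1-LM on the log2 scale, and the GCN2 gene Eif2ak4 changed by -0.25, -0.53, -0.84 and -0.92. Of 12 elongation, termination and recycling genes tested, 4, 5, 5 and 7 were higher and 3, 5, 4 and 4 lower in the same order (MYAZ16.1e, then Myc310, LM1, LM1-LM). Eef2k, the kinase that halts elongation, was higher in MYAZ16.1e (0.44) and lower in Myc310, LM1 and LM1-LM (-0.18, -0.98 and -1.18). Of 16 cap, poly(A) and reinitiation partners, 4, 5, 5 and 5 were higher and 5, 6, 7 and 6 lower. Pdcd4, which inhibits eIF4A, was higher in MYAZ16.1e (0.47) and lower in Myc310, LM1 and LM1-LM (-0.55, -0.46 and -0.38). Other partners moved alike in all 4 lines: Mknk1 rose (1.13, 1.93, 1.98 and 1.84) and Mknk2 fell (-0.495, -0.828, -0.988 and -1.185).

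In control medium the question was how the levels differ with subtype, from the MYAZ lines over Myc310 to the lung-derived LM and LM-LM lines. Of 53 members, 12 were higher and 11 lower in Myc310 than in the MYAZ lines (23.8% and 27.1% of 13795 genes). In LM 15 were higher and 11 lower (30.3% and 30.5%), and in LM-LM 20 were higher and 11 lower (30.5% and 32.3%). These comparisons share the MYAZ controls, and within the lineage origin and metastatic potential cannot be told apart. With counts summed per line, so that a line counts once, 5, 12 and 14 members passed for Myc310, LM and LM-LM (9.43%, 22.6% and 26.4%), close to 8.92%, 23.6% and 26.4% of all genes. The members therefore differed between subtypes about as often as genes at large. An exact two-sided permutation test over 3 line means against 3 can reach 0.1 at the lowest.

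Eif2b1, Eif2d and Eif4g3 were higher in the whole Myc310 lineage. Eif2b1 ran over 44.2 to 60.5 CPM (median 46.6) in the 9 MYAZ libraries, 73.3 to 82.5 CPM (median 79.1) in LM and 76.4 to 87.2 CPM (median 83.9) in LM-LM. Myc310 had 85, 79.3 and 81.4 CPM, and no library of the lineage fell within the MYAZ range. Log2 differences from MYAZ were 0.71 ± 0.069 for Myc310, 0.65 ± 0.051 for LM and 0.71 ± 0.051 for LM-LM (adjusted p = 1.14e-09, 4.94e-12 and 6.38e-13), and with counts summed per line the adjusted p were 0.0164, 0.00274 and 0.00175.

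Eif4g3 ran over 111 to 155 CPM (median 139.8) in MYAZ, 219.7 to 256 CPM (median 232) in LM and 217 to 254 CPM (median 237) in LM-LM, with 234, 237 and 242 CPM in Myc310. The groups did not overlap, and the log2 differences were 0.80 ± 0.073, 0.80 ± 0.054 and 0.79 ± 0.054 (summed per line, adjusted p = 0.0124, 0.00139 and 0.00135). Eif2d ran over 32.9 to 38.2 CPM (median 36.4) in MYAZ, 46 to 62.3 CPM (median 48.7) in LM and 44.4 to 63.8 CPM (median 52.3) in LM-LM, with 52.1, 56.6 and 56.4 CPM in Myc310. Its log2 differences were 0.61 ± 0.09, 0.55 ± 0.066 and 0.56 ± 0.066, and the Myc310 call was lost with counts summed per line (adjusted p = 0.054).

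Eif2s2 and Eif6 were lower in the lineage. Eif2s2 ran over 426 to 486 CPM (median 454) in MYAZ, 300.3 to 321 CPM (median 314) in LM and 308 to 363 CPM (median 321) in LM-LM, with 296, 303 and 308 CPM in Myc310. No library overlapped the MYAZ range, and the log2 differences were -0.59 ± 0.05, -0.54 ± 0.034 and -0.48 ± 0.034 (summed per line, adjusted p = 0.0165, 0.00206 and 0.00342). Eif6 ran over 272 to 366 CPM (median 299) in MYAZ, 182 to 199.6 CPM (median 192) in LM and 188 to 220.1 CPM (median 199) in LM-LM, with 199, 204 and 192 CPM in Myc310. Its log2 differences were -0.65 ± 0.076, -0.70 ± 0.052 and -0.63 ± 0.052 (summed per line, adjusted p = 0.0369, 0.00251 and 0.00384), again without overlap.

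Eif4e3 did not follow the lineage. It stood at 4.08 ± 0.446, 11.7 ± 0.214 and 13.6 ± 0.67 CPM in MYAZ16.1e, MYAZ12.3i and MYAZ6.6g (SD, n = 3), and at 5.71 ± 0.943 CPM in Myc310. LM1, LM2 and LM3 held 27.5 ± 1.94, 32.6 ± 1.27 and 24.4 ± 0.316 CPM, and LM1-LM, LM2-LM and LM3-LM held 28.1 ± 0.191, 30.7 ± 1.23 and 28.1 ± 0.576 CPM. All 6 lung-derived lines were thus above all MYAZ lines and above Myc310, from which they derive, a difference that was not tested. Against MYAZ the log2 difference was 1.52 ± 0.20 for LM and 1.54 ± 0.20 for LM-LM (summed per line, adjusted p = 0.0187 and 0.016), and -0.79 ± 0.30 for Myc310 (adjusted p = 0.0288, lost with counts summed per line at 0.403 and without any 1 replicate, at 0.052 to 0.187). For each of these 6 genes the line means of LM and of LM-LM did not overlap those of MYAZ, and the exact permutation p was 0.1. The genes were chosen for their differences from MYAZ in these same data, so this p adds no support. Members not chosen for such differences, among them Eif2b5, Eif2s1 and Eif3m, also reached it for LM and LM-LM. Its share over all genes was not computed.

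**Figure D5:**
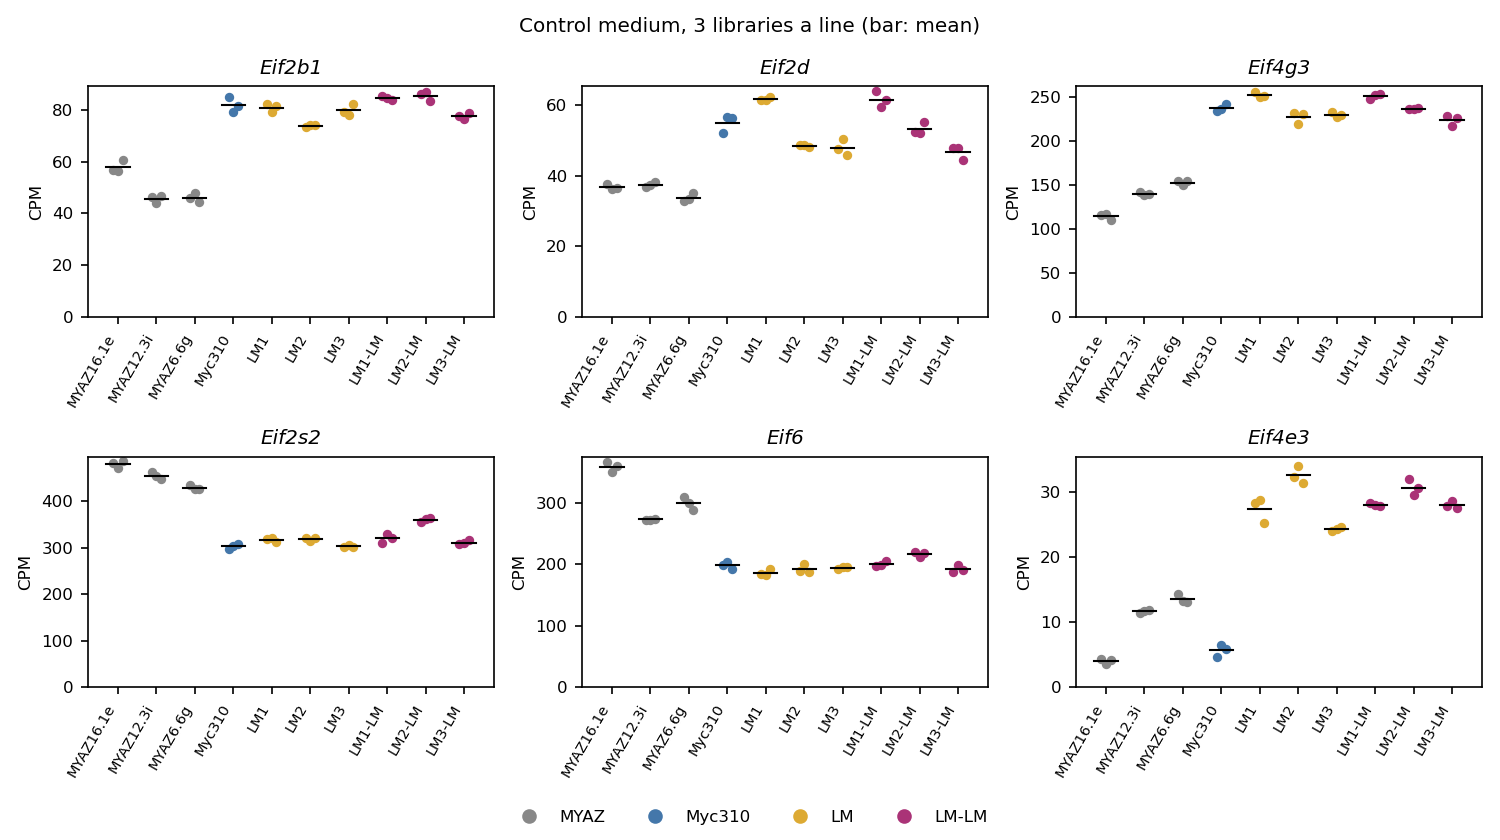
CPM of 6 members in control medium in 10 lines, with 3 libraries a line (points) and their mean (bar), coloured by subtype. Eif2b1, Eif2d and Eif4g3 are higher and Eif2s2 and Eif6 lower in Myc310 and all lines derived from it, while Eif4e3 is high in the 6 lung-derived lines only.

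By role, eIF2B genes parted in control medium: Eif2b1, Eif2b3 and Eif2b5 were higher and Eif2b2 and Eif2b4 lower than in MYAZ in each of the 3 subtypes in the fit over libraries. With counts summed per line, Eif2b1 passed in all 3, whereas Eif2b2 passed in none (adjusted p = 0.0795, 0.091 and 0.157 for Myc310, LM and LM-LM). Eif2b3 was lost for Myc310 and LM (0.219 and 0.0634), Eif2b4 for Myc310 and LM-LM (0.171 and 0.0517) and Eif2b5 for Myc310 (0.159). For Myc310, LM and LM-LM in turn, 1, 2 and 3 of the 14 eIF3 genes were higher (23.8%, 30.3% and 30.5% of all genes) and 5, 5 and 4 lower (27.1%, 30.5% and 32.3%), with Eif3m (-0.49, -0.48 and -0.47), Eif3j1, Eif3j2 and Eif3h among the lower. Summed per line, Eif3m passed in all 3 subtypes and Eif3h in none (adjusted p = 0.15, 0.219 and 0.148), while Eif3j1 was lost for Myc310 and LM-LM (0.216 and 0.0978) and Eif3j2 for Myc310 (0.0778). Of the repressors, Eif4ebp1 was higher in LM and LM-LM (0.33 and 0.40, with adjusted p = 0.095 and 0.049 summed per line). Eif4ebp2 was higher in all 3 subtypes (0.32, 0.30 and 0.32), which did not pass summed per line (adjusted p = 0.255, 0.103 and 0.0723).

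Levels were set against each other only per kilobase of exons, averaged over 10 lines in control medium. Eif5a (683 ± 56.8 CPM per kilobase, SD over lines) and Eif4a1 (396 ± 32) led, and Eif4b, Eif3h, Eif3b and Eif4g1 followed between 210 and 235 CPM per kilobase, within their spread of one another. With the length of the longest coding transcript Eif5a and Eif4a1 kept the first ranks, and Eif1 moved from rank 8 to 3. Eif1ad3 and the Eif4a3 copies Eif4a3l1 and Eif4a3l2 stood at or below 0.182 CPM per kilobase.

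In MYAZ12.3i-NDI1, the differences of Eif4g3, Eif6 and Eif4ebp2 from MYAZ12.3i were small. Of 52 members, 13 were higher and 8 lower than in the parent line (8.14% and 9.27% of 12841 genes). Eif4g3 held 142, 139 and 139.8 CPM in MYAZ12.3i and 118, 117 and 125 CPM with NDI1 (log2 difference -0.23 ± 0.034, adjusted p = 3.62e-04). Eif6 held 272, 272 and 274 CPM and 318, 326 and 301 CPM (0.20 ± 0.031, adjusted p = 4.46e-04), and Eif4ebp2 285, 289.6 and 287 CPM and 248, 261 and 255 CPM (-0.18 ± 0.027, adjusted p = 5.08e-04). None of these groups overlapped. The counts fell to between 1 and 6 higher and between 4 and 6 lower when a replicate was left out, with the lowest counts, 1 and 4, without replicate 1. Calls over all genes fell as well, from 1045 higher and 1191 lower. They were 382 and 516 of 12937 genes without replicate 1, 436 and 601 of 12906 without replicate 2, and 592 and 734 of 12800 without replicate 3. Eif4a3l1 and Eif1ad3 were also lower, near the limit of the counts: Eif4a3l1 went from 18, 24 and 15 counts to 1, 3 and 0, and Eif1ad3 from 11, 10 and 11 counts to 0, 5 and 1.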

How the data were processed

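Whole-number counts per gene were deposited by the authors, who aligned paired-end reads of polyadenylated RNA from a directional kit to GRCm38 with STAR and estimated gene abundance with RSEM. The counts are taken to be rounded RSEM estimates, and whether strand was used is not given in the sources used here. The submitters' processing notes also name R 4.2.2 and DESeq2 1.38.3. No column lacked a sample.

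Groups were taken from the sample labels. Counts were tested in R 4.3.3 with the quasi-likelihood test of edgeR 4.0.16 after its expression filter and TMM scaling, with Benjamini-Hochberg adjustment over all genes and a threshold of 0.05. Deprivation and its differences between lines were fitted over the 24 libraries of the 4 lines with both media, subtypes over 30 control libraries and NDI1 over 6. Standard errors were derived from the F statistic. CPM used TMM-scaled library sizes, and totals of 19517859 to 29019988 counts set the counting precision. Alternatives were RLE and upper-quartile scaling, no filter, DESeq2 1.42.0, limma 3.58.1 (voom), counts summed per line, a replicate block, and each replicate or line left out. The scripts were tested on simulated data. Replicates of a group all differed beyond counting noise. Same-numbered control and deprived libraries did not deviate together (r from -0.0566 to 0.0522), so numbers were not taken to pair samples.

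The members and lists were chosen with earlier results of these data known. The 20 members given by library changed with an absolute log2 fold change of at least 0.5, past the threshold, in at least 2 deprived lines without overlap or in at least 2 subtypes, or were Eif4ebp1, Eif2s1, Eif4e, Eif4a1, Eif4a2 and Eif5, which were always included.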

Additional observations from a re-analysis of the deposited data

Results flagged for a closer look

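In the LM-LM lines in control medium, 1 library stood apart for Eif1: replicate 2 of LM3-LM held 397 CPM, and its gap to the nearest library was 0.643 of the range of the group. Of 60 groups of libraries examined in this way this was the one that passed, while chance passes about 1 in 20.

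The response to deprivation of Myc310 differed from that of MYAZ16.1e by the interaction test of edgeR (adjusted p under 0.05) for 14 of the 20 named members and 28 of all 50 tested, beside 19.8% of all genes higher and 20.4% lower. The log2 difference was positive for Eif1 (0.60), Eif1a (0.12), Eif1ad (0.33), Eif2s1 (0.16), Eif2s2 (0.35), Eif3a (0.23), Eif3c (0.38), Eif4e (0.34) and Eif4ebp1 (0.21). It was negative for Eif4e3 (-0.88), Eif4ebp2 (-0.35), Eif4g1 (-0.31), Eif5 (-0.31) and Eif5a2 (-0.78).

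The response to deprivation of LM1 differed from that of MYAZ16.1e by the interaction test of edgeR (adjusted p under 0.05) for 18 of the 20 named members and 34 of all 50 tested, beside 26.9% of all genes higher and 25.3% lower. The log2 difference was positive for Eif1 (0.83), Eif1a (0.28), Eif1ad (0.23), Eif2s1 (0.22), Eif2s2 (0.49), Eif3a (0.33), Eif3c (0.54), Eif4a1 (0.15), Eif4e (0.67), Eif4ebp1 (0.43), Eif4g3 (0.10) and Eif6 (0.16). It was negative for Eif2d (-0.21), Eif4e3 (-1.10), Eif4ebp2 (-0.39), Eif4g1 (-0.40), Eif5 (-0.28) and Eif5a2 (-1.21).

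The response to deprivation of LM1-LM differed from that of MYAZ16.1e by the interaction test of edgeR (adjusted p under 0.05) for 17 of the 20 named members and 34 of all 50 tested, beside 28.4% of all genes higher and 26.4% lower. The log2 difference was positive for Eif1 (0.91), Eif1a (0.35), Eif1ad (0.19), Eif2s1 (0.25), Eif2s2 (0.53), Eif3a (0.37), Eif3c (0.57), Eif4a1 (0.19), Eif4e (0.76), Eif4ebp1 (0.31) and Eif6 (0.11). It was negative for Eif2d (-0.24), Eif4e3 (-1.20), Eif4ebp2 (-0.46), Eif4g1 (-0.41), Eif5 (-0.17) and Eif5a2 (-0.83).

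Most of the 20 were named for large changes in these same data, so their counts are no measure of how often members differ. Leaving out a replicate number from all lines ended some of these calls. For Myc310 this held for Eif1a, Eif2s1 and Eif5a2 without replicate 1 (adjusted p = 0.103, 0.142 and 0.173) or replicate 2 (0.0858, 0.0759 and 0.0654). For LM1 it held for Eif2d without replicate 2 (0.0538) and for Eif4g3 without replicate 2 (0.218) or 3 (0.0577). For LM1-LM it held for Eif1ad and Eif6 without replicate 1 (0.114 and 0.344) and for Eif5a2 without replicate 2 (0.15) or 3 (0.0974). Upper-quartile scaling ended the calls of Eif1a for Myc310 (adjusted p = 0.0795), of Eif4a1, Eif4g3 and Eif6 for LM1 (0.0654, 0.768 and 0.0984) and of Eif1ad and Eif6 for LM1-LM (0.0807 and 0.688). The 3 contrasts share the libraries of MYAZ16.1e, and line and lineage cannot be told apart.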

How the results depend on the processing

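The deprivation counts kept within 1.5 times their value under every alternative run. In control medium, counts summed per line gave 2 members higher and 3 lower for Myc310, 6 and 6 for LM and 10 and 4 for LM-LM, from fewer samples. Over all 16017 genes they gave 756 higher and 673 lower, 1804 and 1984, and 2046 and 2180 in that order. A limma voom fit that treats line as a random effect gave 7 members higher for Myc310, beside 1533 of 13795 genes. For NDI1, leaving out 1 replicate gave 1 to 6 members higher and 4 to 6 lower, again from fewer samples. Over all genes it gave 382 to 592 higher and 516 to 734 lower, against 1045 and 1191 with all replicates. With upper-quartile scaling the median log2 change of all genes under deprivation was -0.0802 in LM1 (-0.00461 with TMM) and -0.0768 in LM1-LM (0), and the median difference in response of LM1-LM from MYAZ16.1e was -0.0825 (0.00138). Of 80 deprivation values of named members, 78 kept their side of the threshold with upper-quartile scaling, the exceptions being Eif4e in Myc310 and Eif4a2 in LM1-LM. Of the 60 differences in response, 49 kept their side with that scaling, 6 were lost and 5 gained, and of 60 subtype values 15 calls were lost with counts summed per line and 9 with voom. No called value changed sign. Of the 20 named levels per kilobase, 15 moved with the length of the longest coding transcript. Eif5a2, Eif4e3, Eif4ebp3 and the Eif4a3 copies have few counts, which limits the precision of their values.

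With the replicate block, 10 members were higher and 25 lower in MYAZ16.1e, 17 and 26 in Myc310, 17 and 24 in LM1 and 19 and 23 in LM1-LM, and 28, 34 and 34 responses differed from MYAZ16.1e. Over all 13400 genes the block gave 3535 higher and 3607 lower in MYAZ16.1e and 4400 and 4538 in Myc310. In LM1 it gave 4785 and 4709, and in LM1-LM 4880 and 4781. Differences from MYAZ16.1e over all genes were 2649 positive and 2723 negative for Myc310, 3597 and 3378 for LM1, and 3793 and 3524 for LM1-LM. In control medium the block gave 12 members higher and 10 lower for Myc310, 15 and 10 for LM, 19 and 11 for LM-LM and 13 and 8 for NDI1. Over all 13795 genes it gave 3191 and 3610 for Myc310, 4097 and 4147 for LM and 4136 and 4392 for LM-LM. For NDI1 it gave 1043 and 1202 of 12841 genes. Libraries shared only a number, since own-number correlations ran from -0.0566 to 0.0522 between media and same-number correlations from -0.145 to 0.141 between lines in control medium.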
